A study of Mus musculus with 8 samples.

Results

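The genes followed here are 10 that define radial glia, namely *Pax6*, *Sox1*, *Sox2*, *Sox3*, *Nes*, *Vim*, *Fabp7*, *Prom1*, *Slc1a3* and *Hopx*. They were chosen by gene name from the deposited count table, and all 10 were found among its 33971 genes and all 10 were among the 19367 genes with enough reads to be tested. Polyadenylated RNA was sequenced in bulk from whole brains of wild-type (WT) mouse embryos at E14.5. Their mothers, which the methods describe as WT for the CDD, received either a choline-deficient diet (CDD, 4 brains) or a normal chow diet (ND, 4 brains), and the labels give every embryo as wild-type. According to the methods the CDD was fed from mating until the embryos were collected, whereas a table legend places its start before mating. Neither the labels nor the methods give the number of dams or litters, so p-values measure the spread between these brains, some of which may have shared a mother.

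Radial glia are the stem cells of the embryonic brain. Their cell bodies line the ventricle, they are tied to one another by apical junctions, and a long basal fibre runs to the pial surface. They divide at the ventricle to renew themselves and to give rise, directly or through intermediate progenitors, to neurons, and later to astrocytes, oligodendrocyte precursors and ependymal cells. SoxB1 transcription factors and PAX6 keep the progenitor state, the filament proteins nestin and vimentin fill the fibre, and FABP7, prominin-1 and the glutamate transporter GLAST (the product of *Slc1a3*) serve as markers of these cells.

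The gene counts of a brain summed to 31770217 at the lowest and 43121170 at the highest, of which the 10 radial glia genes together took 52498 to 73634. Expression is given below as CPM, the count per megaread of the library after scaling by TMM. A gene is called changed where the quasi-likelihood test of edgeR gave a p-value under 0.05 after Benjamini-Hochberg adjustment over all genes tested. Differences are log2 fold changes of CDD over ND with their standard error (SE) and 95% confidence interval (CI). Some brains stood apart in markers of other tissue. The summed level of 7 Hox genes, which are transcribed in hindbrain and spinal cord, was 94.5 CPM in CDD replicate 2, 1.63 CPM in CDD replicate 1 and at most 0.176 CPM in the other 6 brains. The summed level of 6 choroid plexus genes was 531 CPM in CDD replicate 1, 225 CPM in CDD replicate 4 and 320.5 to 359.5 CPM in the other 6 brains. *Xist*, the RNA that coats the inactive X chromosome of females, was at 1611 to 1700 CPM in CDD replicates 2 and 4 and in ND replicate 4 and at most 0.351 CPM in the other 5. Results for the 10 radial glia genes together, and for some singly, are therefore given without CDD replicate 2 and with *Xist* as a covariate. In a bulk sample, fewer cells of a type and less RNA per cell cannot be told apart.

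Of the 10 genes, 5 rose under CDD, namely *Sox3*, *Nes*, *Prom1*, *Pax6* and *Vim*, by between 1.16-fold and 1.39-fold. edgeR, DESeq2 and limma-voom each called 5 higher and 0 of the 10 lower. Among all genes tested edgeR called 8.83%, made up of 4.24% higher and 4.59% lower. At an unadjusted p-value under 0.05, 7 of the 10 genes were higher and 0 lower, beside 23.9% of all genes in either direction. The median log2 fold change of CDD over ND was 0.16 over the 10 genes and -0.0038 over all genes tested. Values above 0 numbered 8 of the 10, beside 9507 of all 19367 genes tested. For 6 of the 10 genes the lowest CDD value exceeded the highest ND value, a separation that 7.65% of all tested genes had in this direction and 15% in either. Without CDD replicate 2, and likewise with *Xist* as a covariate, 5 genes were higher and the median was 0.16. Without CDD replicate 1 or without CDD replicate 4 the count was also 5, with a median of 0.17 and 0.14.

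**Figure D1:**
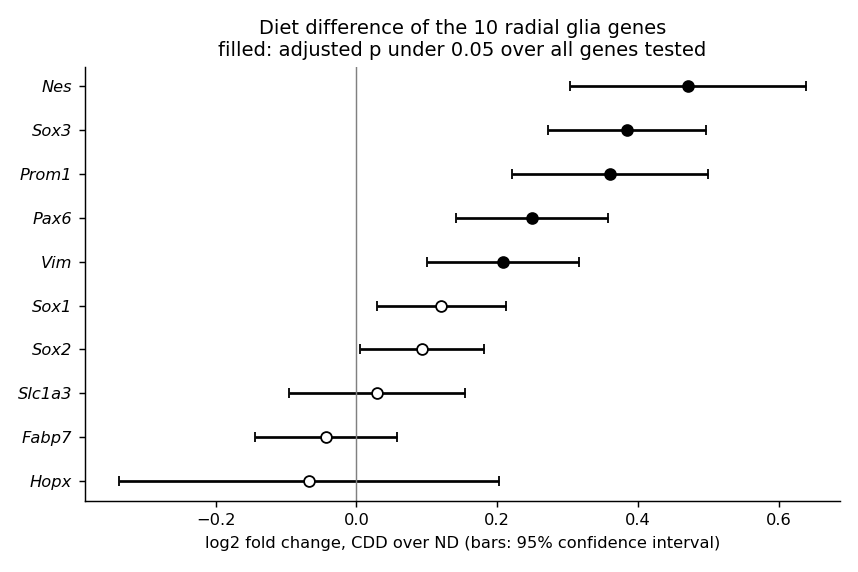
Log2 fold change of CDD over ND brains for the 10 radial glia genes (horizontal axis), with bars for the 95% confidence interval from edgeR's test of 4 against 4 brains and filled points for an adjusted p-value under 0.05. The 5 filled points lie between 0.21 and 0.47, and the intervals of *Slc1a3*, *Fabp7* and *Hopx* span 0.

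*Sox1*, *Sox2* and *Sox3* form the SoxB1 family, whose proteins bind DNA through an HMG box and hold neural progenitors in an undifferentiated state. Each is a gene of 1 exon in the GENCODE M21 annotation. The 240 coding bases in which *Sox1* and *Sox3* are most like *Sox2* are shown because they encode most of the HMG box and because reads from such a stretch are the ones that could be placed on the wrong family member. They lie in GRCm38 at chr3:34650536-34650775 on the plus strand (*Sox2*), chr8:12396505-12396744 on the plus strand (*Sox1*) and chrX:60892768-60893007 on the minus strand (*Sox3*). Capitals mark the bases that differ from *Sox2*.
Sox2: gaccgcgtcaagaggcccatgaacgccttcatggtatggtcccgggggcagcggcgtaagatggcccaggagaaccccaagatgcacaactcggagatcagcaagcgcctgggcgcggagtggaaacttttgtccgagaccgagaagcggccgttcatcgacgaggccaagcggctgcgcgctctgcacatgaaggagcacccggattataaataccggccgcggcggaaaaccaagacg
Sox1: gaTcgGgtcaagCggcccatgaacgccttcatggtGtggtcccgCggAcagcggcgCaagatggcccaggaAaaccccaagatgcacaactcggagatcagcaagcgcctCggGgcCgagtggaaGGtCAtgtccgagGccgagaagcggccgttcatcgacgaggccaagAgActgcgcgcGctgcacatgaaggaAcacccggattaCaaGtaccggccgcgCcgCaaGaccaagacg
Sox3: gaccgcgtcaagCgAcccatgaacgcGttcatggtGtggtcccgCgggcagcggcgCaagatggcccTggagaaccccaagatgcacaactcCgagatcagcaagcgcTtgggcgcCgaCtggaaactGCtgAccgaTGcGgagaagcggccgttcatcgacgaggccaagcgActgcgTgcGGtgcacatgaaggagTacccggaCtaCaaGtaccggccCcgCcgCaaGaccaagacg
*Sox1* differed from *Sox2* at 25 of these 240 bases (89.6% identity) and *Sox3* at 29 (87.9% identity). Over the whole transcripts, the longest identical run was 38 bases between *Sox2* and *Sox1*, 32 bases between *Sox2* and *Sox3* and 45 bases between *Sox1* and *Sox3*. The read length was not given in the sources used here.

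*Sox3*, the X-linked member (chromosome X, 59934972 to 59937036, minus strand, as the deposited table lists it on a build it does not name), had the smallest p-value of the 10 genes and ranked 19th of all 19367. Its level was 53.6, 54.2, 55.0 and 53.7 CPM in the CDD brains and 41.6, 45.4, 38.7 and 40.3 CPM in the ND brains. The groups did not overlap, and the CDD brains lay within a far narrower band than the ND brains. The mean was 41.5 ± 2.88 CPM under ND and 54.1 ± 0.601 CPM under CDD (SD, n = 4 each), a log2 difference of 0.38 (SE 0.054, 95% CI 0.27 to 0.50, edgeR adjusted p = 0.000778). The call stood in all 8 fits that left out 1 brain. The log2 fold change was 0.39 without CDD replicate 2 (edgeR adjusted p = 0.00199) and 0.39 with *Xist* as a covariate (edgeR adjusted p = 0.000143).

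The 2 autosomal family members did not pass the threshold. *Sox1* (chromosome 8, 12445295 to 12450126, plus strand in the deposited table) was at 104.5, 103.9, 107.8 and 115.6 CPM in CDD brains and at 100.5, 102.6, 98.0 and 95.9 CPM in ND brains. Every CDD brain was above every ND brain, though the lowest CDD brain exceeded the highest ND brain by 1.25 CPM only. Its log2 fold change was 0.12 (SE 0.044, 95% CI 0.029 to 0.21, edgeR adjusted p = 0.0922), and it was called in 0 of the 8 fits with a brain left out.

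*Sox2*, the most abundant of the 3 per length of transcript, stands at chromosome 3, 34704554 to 34706610, on the plus strand of the deposited table. The CDD brains held 146.2, 140.8, 150.1 and 151.5 CPM and the ND brains 135.4, 146.5, 136.2 and 134.0 CPM. The groups overlapped, since ND replicate 2 was above CDD replicates 1 and 2. The log2 fold change was 0.09 (SE 0.042, 95% CI 0.0047 to 0.18, edgeR adjusted p = 0.183). Both *Sox1* and *Sox2* lie within longer transcripts counted as genes of their own. *Sox1ot*, on the same strand, had 119% of the *Sox1* count, with a log2 fold change of 0.04 (edgeR adjusted p = 0.794), and *Sox2ot*, also on the same strand, had 38.3% of the *Sox2* count, with a log2 fold change of 0.01 (edgeR adjusted p = 0.961). How the authors' counting shared reads between these overlapping genes is not given in the sources used here, so the *Sox1* and *Sox2* values are uncertain to that extent, while no listed gene overlaps *Sox3*.

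*Pax6* and *Hopx* encode homeodomain proteins of different kinds. PAX6 is a paired-box transcription factor of dorsal forebrain radial glia, of hindbrain progenitors and of the eye, while HOPX is a small homeodomain protein that does not bind DNA and marks a subset of neural stem cells. *Pax6* (chromosome 2, 105499245 to 105527709, plus strand in the deposited table) was at 87.7, 75.2, 79.2 and 84.7 CPM in CDD brains and at 69.5, 72.7, 66.5 and 66.1 CPM in ND brains. The groups did not overlap, and CDD replicate 2 was the lowest of its group. *Pax6* was higher in CDD brains, 81.7 ± 5.58 against 68.7 ± 3.08 CPM (SD, n = 4 each), with a log2 fold change of 0.25 (SE 0.051, 95% CI 0.14 to 0.36, edgeR adjusted p = 0.00642). It was called in all 8 fits with a brain left out, and the log2 fold change without CDD replicate 2 was 0.29. The antisense gene *Pax6os1*, which overlaps its listed span, had 0.900% of the *Pax6* count.

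*Hopx* (chromosome 5, 77234835 to 77262968, minus strand in the deposited table) was the scarcest of the 10 genes, with 100 to 156 reads per brain. The CDD brains were at 3.56, 3.97, 3.62 and 3.02 CPM and the ND brains at 3.42, 3.50, 4.02 and 3.91 CPM. The groups overlapped widely. Its log2 fold change was -0.07 (SE 0.13, 95% CI -0.34 to 0.20, edgeR adjusted p = 0.807), so a change the size of that of *Sox3* or *Nes* in the upward direction lay outside the interval, and one the size of *Vim* in the downward direction lay within it.

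The intermediate filament genes were both higher in CDD brains. *Nes* encodes nestin, the classical filament marker of neural stem cells, which is also made by growing blood vessels, and *Vim* encodes vimentin, its assembly partner, which mesenchymal and vascular cells make as well. *Nes* (chromosome 3, 87878385 to 87887758, plus strand in the deposited table) was at 320.9, 365.2, 331.5 and 425.0 CPM in CDD brains and at 261.1, 282.8, 250.9 and 245.7 CPM in ND brains. The groups did not overlap, and the CDD brains were spread more widely, with CDD replicate 4 the highest. The means were 361 ± 46.9 and 260 ± 16.4 CPM (SD, n = 4 each), and the log2 fold change of 0.47 (SE 0.078, 95% CI 0.30 to 0.64, edgeR adjusted p = 0.00344) was the largest of the 10 genes. It was 0.38 without CDD replicate 4, 0.47 without CDD replicate 2 and 0.44 with *Xist* as a covariate, and each of these fits called it.

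*Vim* (chromosome 2, 13578738 to 13587637, plus strand in the deposited table) was at 579.4, 592.9, 516.9 and 572.6 CPM in CDD brains and at 492.1, 508.5, 480.0 and 477.3 CPM in ND brains. All CDD brains were above all ND brains, with CDD replicate 3 nearest to them. The log2 fold change was 0.21 (SE 0.052, 95% CI 0.10 to 0.32, edgeR adjusted p = 0.0183). This was the weakest of the 5 calls, since it was lost without ND replicate 1 (adjusted p = 0.0712), ND replicate 3 (adjusted p = 0.104) or ND replicate 4 (adjusted p = 0.0715, all by edgeR), where it measured 0.20 to 0.21 on the log2 scale. The *Vim* call was narrowly kept without CDD replicate 2, at 0.19 (edgeR adjusted p = 0.0478). With *Xist* as a covariate it was 0.20 (edgeR adjusted p = 0.0110). Endothelial marker genes, which belong to another cell type that makes both filaments, had a summed level of 232 to 250 CPM in CDD and 248 to 267 CPM in ND brains, and the summed meningeal fibroblast markers were at 309 to 336 CPM in CDD and 324 to 384 CPM in ND brains. Their part in the filament values was not tested.

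**Figure D2:**
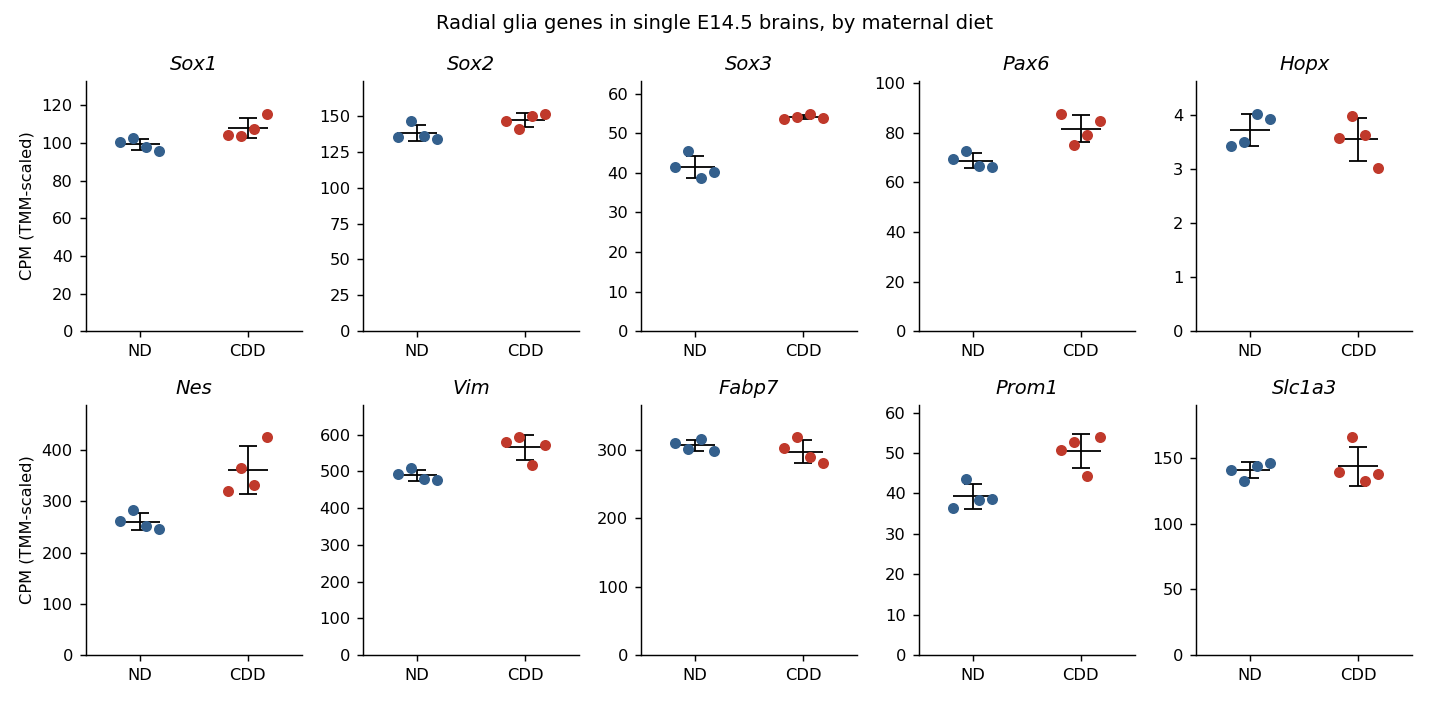
Expression of the 10 radial glia genes in single brains (vertical axes, TMM-scaled CPM, starting at 0), with 1 point per brain, a line at the mean and a bar of 1 SD for 4 ND (blue) and 4 CDD (red) brains. The diets do not overlap for *Sox1*, *Sox3*, *Pax6*, *Nes*, *Vim* and *Prom1*.

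Of the 3 remaining markers, 1 was higher in CDD brains. *Prom1* encodes prominin-1 (CD133), a membrane protein of the apical protrusions of radial glia and of photoreceptor discs, and is listed at chromosome 5, 44150962 to 44259374, on the minus strand. Its level was 50.7, 52.8, 44.4 and 53.9 CPM in CDD and 36.3, 43.7, 38.4 and 38.7 CPM in ND brains. CDD replicate 3 was 0.725 CPM above ND replicate 2, and the other brains were well apart. The means were 50.4 ± 4.24 and 39.3 ± 3.11 CPM (SD, n = 4 each), with a log2 fold change of 0.36 (SE 0.067, 95% CI 0.22 to 0.50, edgeR adjusted p = 0.00344). The call stood in all 8 fits with a brain left out, with a log2 fold change of 0.34 without CDD replicate 2 and 0.34 with *Xist* as a covariate. *Gm16401*, which overlaps its listed span on the opposite strand, had 5.16% of its count and a log2 fold change of 0.29 (edgeR adjusted p = 0.285).

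*Fabp7* encodes brain lipid-binding protein, a carrier of fatty acids in radial glia and a target of Notch signaling. It is listed at chromosome 10, 57660977 to 57664546, on the plus strand, and was at 302.8, 318.9, 289.5 and 281.4 CPM in CDD and 310.8, 302.5, 316.1 and 299.3 CPM in ND brains. The groups overlapped, with the highest and the lowest of the 8 values both in CDD brains. The log2 fold change was -0.04 (SE 0.048, 95% CI -0.14 to 0.058, edgeR adjusted p = 0.643), and a rise the size of those of the 5 higher genes lay outside this interval.

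*Slc1a3* encodes GLAST, which takes up glutamate in radial glia and later in astrocytes, and is listed at chromosome 15, 8663608 to 8740248, on the minus strand. The CDD brains were at 139.8, 166.0, 132.7 and 137.8 CPM and the ND brains at 141.1, 133.0, 143.9 and 146.7 CPM. The single high value was that of CDD replicate 2, the brain with Hox transcripts, and the other 7 brains lay between 132.7 and 146.7 CPM. The log2 fold change was 0.03 (SE 0.059, 95% CI -0.096 to 0.15, edgeR adjusted p = 0.820). Without CDD replicate 2 it was -0.0445 (edgeR adjusted p = 0.624), so even its sign rested on that brain. *Gm37310*, which lies within its listed span on the same strand, had 1.47% of its count and a log2 fold change of 0.11 (edgeR adjusted p = 0.726).

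The 120 bases before the transcription start are shown for the filament genes, *Prom1* and *Pax6*, which rose, and for *Fabp7* and *Slc1a3*, which did not pass the test, so that the regulatory sequence of markers of the same cells can be read side by side. They are from RefSeq promoter windows on GRCm38.p6 (250 bases before to 50 after each listed start, of which the first listed window per gene was taken): chr3:87970973-87971092 (*Nes*, plus strand), chr2:13574191-13574310 (*Vim*, plus), chr5:44101737-44101856 (*Prom1*, minus), chr2:105668776-105668895 (*Pax6*, plus), chr10:57784803-57784922 (*Fabp7*, plus) and chr15:8710808-8710927 (*Slc1a3*, minus). Capitals mark the letters CCAAT (the CCAAT box), TATAAA (the TATA box) and GGGCGG (the GC box) on either strand, so that a match on the other strand appears as the reverse complement (ATTGG for the CCAAT box).
Nes: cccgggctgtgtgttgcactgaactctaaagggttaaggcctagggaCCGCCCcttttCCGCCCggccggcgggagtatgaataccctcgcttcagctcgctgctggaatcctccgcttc
Vim: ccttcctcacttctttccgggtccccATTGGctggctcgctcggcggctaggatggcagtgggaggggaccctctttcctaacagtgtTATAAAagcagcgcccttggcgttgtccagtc
Prom1: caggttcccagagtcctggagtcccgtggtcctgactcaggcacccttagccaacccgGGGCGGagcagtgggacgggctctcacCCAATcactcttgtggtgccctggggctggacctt
Pax6: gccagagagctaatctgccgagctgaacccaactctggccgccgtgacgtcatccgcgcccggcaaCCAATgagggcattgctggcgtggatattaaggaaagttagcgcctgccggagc
Fabp7: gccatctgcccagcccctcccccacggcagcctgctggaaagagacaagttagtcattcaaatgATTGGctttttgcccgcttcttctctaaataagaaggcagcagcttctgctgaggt
Slc1a3: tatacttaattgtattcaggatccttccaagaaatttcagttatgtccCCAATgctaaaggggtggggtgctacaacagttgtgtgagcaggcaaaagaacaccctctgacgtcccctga
In these stretches *Vim* had TATAAA 32 bases before the start, and *Nes* had a pair of GC box matches and no CCAAT. Over the full windows, 9 of the 10 genes had an entry and *Sox3* had none, which left 12 windows. CCAAT was found in 9 of the 12 windows, beside 37.4% of all 32851 windows of the same length, and *Nes* was the gene with no window that held it. GGGCGG was found in 5 of the 12 windows (those of *Nes*, *Slc1a3*, *Sox1* and *Sox2* and 1 of the windows of *Prom1*), beside 35.7% of all windows. TATAAA was found in 2 of the 12 (those of *Vim* and *Slc1a3*), beside 13.6% of all windows. Each of the 3 motifs occurred both in genes that rose and in *Slc1a3*.

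Levels can be compared between genes only per length, for which the FPKM values deposited by the authors were used. As a mean over the 8 brains, *Fabp7* was highest at 241 FPKM (range 226 to 254), followed by *Vim* at 111 (100 to 125), *Sox2* at 69.0 (64.7 to 73.9) and *Nes* at 48.2 (38.1 to 66.5). The middle of the order was taken by *Sox3* at 23.0 (18.6 to 26.5), *Sox1* at 21.3 (19.7 to 24.0) and *Slc1a3* at 16.6 FPKM (15.5 to 19.4). *Pax6* at 6.40 (5.62 to 7.43), *Prom1* at 6.22 (5.04 to 7.54) and *Hopx* at 2.38 FPKM (2.00 to 2.63) were lowest. The marker with the highest level, *Fabp7*, and the one with the lowest, *Hopx*, were thus both among those that did not pass the test. The 5 that rose lay in between, as did *Sox2*, *Sox1* and *Slc1a3*, which did not pass either. Ranges of neighbours in this order overlapped for *Sox2* and *Nes*, for *Sox3* and *Sox1*, and for *Pax6* and *Prom1*. Within the SoxB1 family, *Sox3* was at 26.1 ± 0.318 FPKM and *Sox1* at 22.3 ± 1.23 FPKM in CDD brains (SD, n = 4), whereas in ND brains they were at 19.97 ± 1.41 and 20.4 ± 0.618 FPKM (SD, n = 4).

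**Figure D3:**
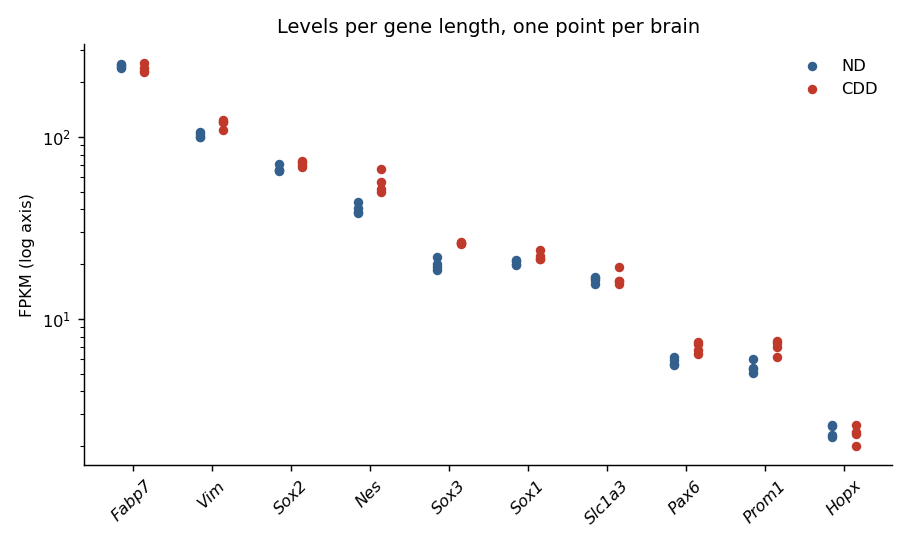
Deposited FPKM values of the 10 radial glia genes (vertical log axis), ordered by their mean over the 8 brains, with 1 point per ND (blue) or CDD (red) brain. *Fabp7* lies at 226 to 254 FPKM and *Hopx* at 2.00 to 2.63 FPKM, with the points of *Sox3* and *Sox1* and of *Pax6* and *Prom1* overlapping.

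A ratio of 2 genes within a brain does not depend on how libraries are scaled, and 5 such pairs were compared. The *Sox3*/*Sox2* ratio of TMM-scaled counts was 0.367, 0.385, 0.366 and 0.355 in CDD brains and 0.307, 0.310, 0.284 and 0.301 in ND brains. Every CDD brain was above every ND brain, and the mean log2 ratio was higher by 0.29 in CDD brains (p = 0.0286 in an exact two-sided permutation test, the smallest that 4 against 4 brains can give, and 0.143 after adjustment over the 5 pairs). The *Vim*/*Nes* ratio was 1.81, 1.62, 1.56 and 1.35 in CDD and 1.88, 1.80, 1.91 and 1.94 in ND brains. CDD replicate 1 reached above ND replicate 2, and the other CDD brains were below all ND brains. Its log2 ratio was lower by 0.26 in CDD brains as a mean, which is -0.26 as CDD minus ND (exact permutation p = 0.0571, adjusted p = 0.143). The log2 ratio differed as CDD minus ND by -0.32 for *Hopx*/*Pax6* (exact permutation p = 0.114, adjusted p = 0.190), by 0.07 for *Slc1a3*/*Fabp7* (exact permutation p = 0.200, adjusted p = 0.25) and by 0.03 for *Sox1*/*Sox2* (exact permutation p = 0.457, adjusted p = 0.457). No pair passed 0.05 after adjustment, which 4 against 4 brains could reach only if at least 3 of the 5 pairs were at the smallest possible p-value.

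**Figure D4:**
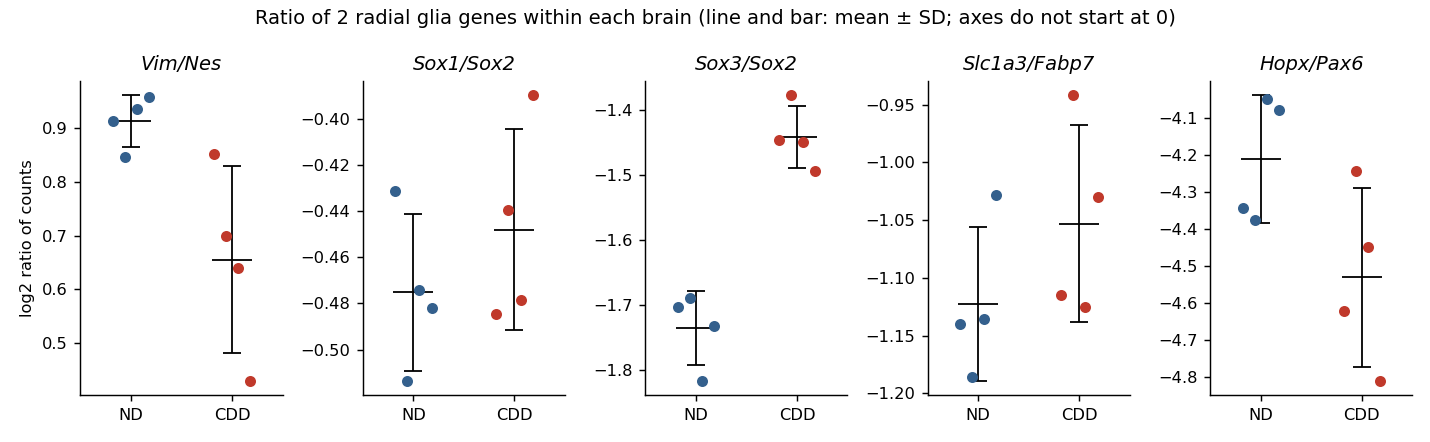
Log2 ratio of counts for 5 pairs of radial glia genes within each brain (vertical axes, not starting at 0), with 1 point per ND (blue) or CDD (red) brain and the mean with 1 SD. For *Sox3*/*Sox2* all 4 CDD brains lie above the 4 ND brains, and the other 4 pairs overlap.

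Seen by brain, the highest value of the 8 was in a CDD brain for 9 of the 10 genes. These include every gene whose CDD brains all lay above the ND brains, and the share over all genes was not computed. CDD replicate 4 held the highest value of 4 genes, CDD replicate 2 of 3, and CDD replicates 1 and 3 and ND replicate 3 of 1 each. The lowest value was in ND replicate 4 for 5 genes. Relative to the ND mean, the median log2 level of the 10 genes was 0.16, 0.18, 0.12 and 0.22 in the CDD brains and 0.0065, 0.07, -0.02 and -0.04 in the ND brains. The brains with *Xist* transcripts were found at both ends, since CDD replicate 4 had the highest and ND replicate 4 the lowest median.

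Further genes known from radial glia were examined as a written list of 28, all of which were tested. Of these, 10 were higher and 2 lower under CDD, beside the 4.24% and 4.59% of all genes. The median log2 difference was 0.15 and 21 values were above 0, beside 9507 values above 0 among all 19367 genes tested. The largest rise was that of *Gli3*, the Hedgehog pathway repressor of dorsal progenitors, from 58.1 ± 4.44 to 79.1 ± 6.37 CPM (SD, n = 4 each), with a log2 fold change of 0.45 (SE 0.060, edgeR adjusted p = 0.000778). *Slc1a2*, the second glial glutamate transporter, was higher by 0.27 on the log2 scale (edgeR adjusted p = 0.00287), unlike its relative *Slc1a3*, though the difference between these genes was not tested. The metabolic enzyme genes *Phgdh* (serine synthesis) and *Aldoc* (glycolysis) were both higher by 0.21 (adjusted p = 0.00659 and 0.0139 in edgeR's test). *Nr2e1*, encoding the stem cell receptor TLX, was higher by 0.35 (adjusted p = 0.0120), and *Id4*, an inhibitor of bHLH factors, by 0.20 (adjusted p = 0.0153, both in edgeR's test).

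The 2 genes of this list that were lower encode secreted proteins. *Tnc* encodes the matrix glycoprotein tenascin-C and fell from 177 ± 7.43 to 137 ± 9.15 CPM (SD, n = 4 each), a log2 fold change of -0.37 (SE 0.049, edgeR adjusted p = 0.000671), with all CDD brains below all ND brains. *Mfge8*, encoding lactadherin, was lower by 0.17, a log2 fold change of -0.17 (edgeR adjusted p = 0.0276). The remaining higher genes were *Sox9*, *Sox21*, *Emx2* and *Zfp36l1*, at log2 fold changes of 0.17 to 0.26, named here because they complete the count. *Gli3*, *Slc1a2*, *Phgdh* and *Tnc* were called in all 8 fits with a brain left out. The call of *Nr2e1* and of *Id4* was lost without ND replicate 3 or 4, that of *Aldoc* without ND replicate 1 or 3, and those of *Mfge8* and of the 4 remaining genes in 4 to 6 of the 8 fits.

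**Figure D5:**
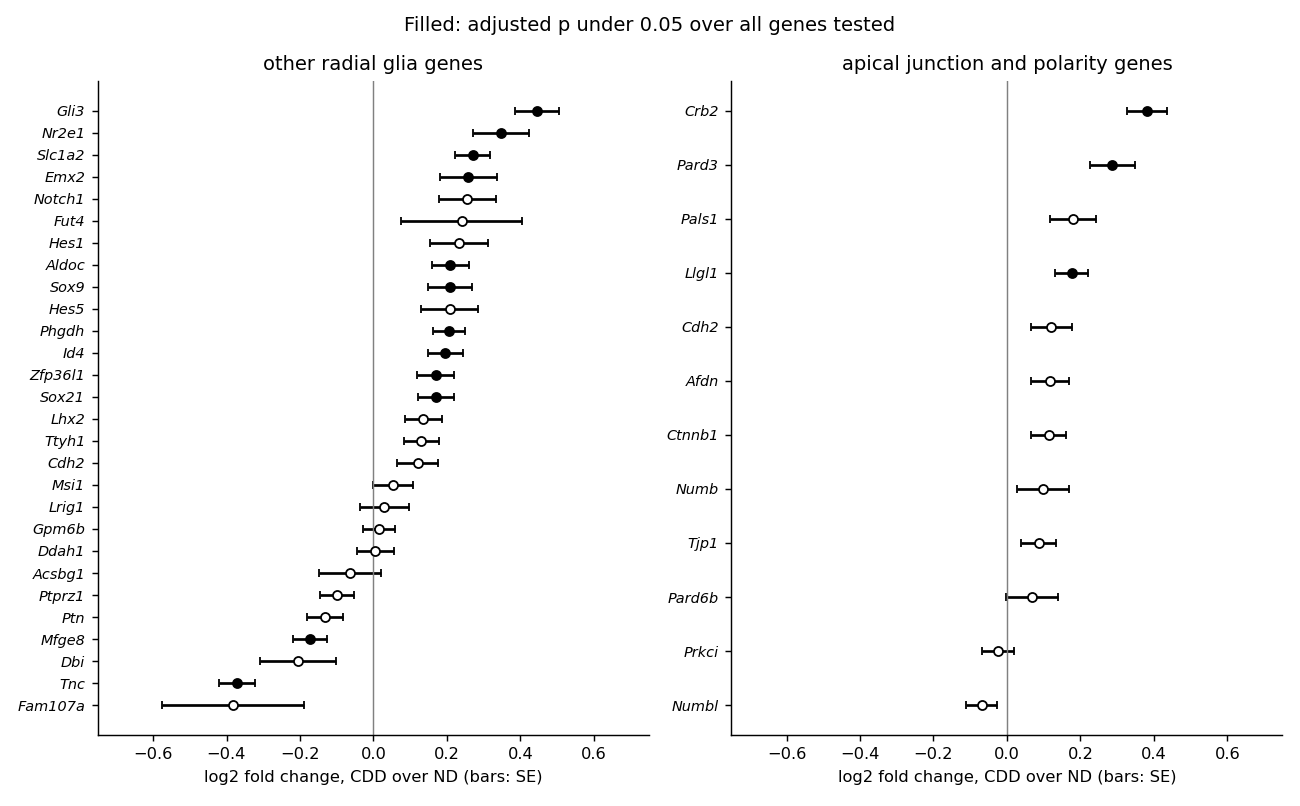
Log2 fold change of CDD over ND brains (horizontal axes) for 28 other radial glia genes (left) and 12 apical junction and polarity genes (right), with bars of 1 SE and filled points for genes past the edgeR threshold of 0.05. On the left 10 filled points lie above 0 and 2 below, and on the right 3 lie above 0.

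Apical junctions and polarity proteins hold radial glia at the ventricle, and of 12 such genes edgeR called 3 higher and 0 lower under CDD, and the median log2 difference was 0.12. Of all genes tested, 4.24% were called higher and 4.59% lower. *Crb2*, encoding the apical determinant Crumbs, rose from 35.1 ± 1.23 to 45.7 ± 2.37 CPM (SD, n = 4 each), a log2 fold change of 0.38 (SE 0.055, edgeR adjusted p = 0.000902). *Pard3*, which encodes a scaffold of the apical PAR complex, was higher by 0.29 (adjusted p = 0.00869) and *Llgl1*, encoding its basolateral antagonist, by 0.18 (adjusted p = 0.0206, both in edgeR's test). Only the *Crb2* call stood in all 8 fits with a brain left out, since *Pard3* was lost without ND replicate 3 and *Llgl1* without ND replicate 1, 3 or 4.

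Genes of cycling cells and of the cell types after radial glia in the lineage were set beside these values. Of 10 genes of cycling cells, edgeR called 9 higher under CDD and 0 lower, beside 4.24% and 4.59% of all genes tested. With a brain left out it called 6 to 9 higher, with 6 without CDD replicate 1 or ND replicate 1, 3 or 4. The median log2 difference of the 10 cycling genes was 0.32, and they had a summed level of 1001 to 1230 CPM in CDD against 795 to 915 CPM in ND brains. Among them *Top2a*, a topoisomerase of dividing cells, was higher by 0.44 (adjusted p = 0.00287) and the proliferation marker *Mki67* by 0.41 (adjusted p = 0.0359, both in edgeR's test), of which *Mki67* lost its call in 4 of the 8 fits with a brain left out. *Pcna* was called in 4 of these 8 fits and *Aurkb* in 3. CDD replicate 4, the brain with the highest *Nes* level, also had the highest summed level of cycling genes, at 1230 CPM. Radial glia are themselves cycling cells, and the part of the cycling genes in the rise of the 5 markers was not tested.

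Of 8 genes of intermediate progenitors, 2 were higher (*Neurog2*, a proneural factor, by 0.32, adjusted p = 0.00475, and *Btg2*, an antiproliferative factor of neurogenic divisions, by 0.35, adjusted p = 0.00322, both in edgeR's test) and none was lower. The shares over all genes tested, for these and the following lists, were 4.24% higher and 4.59% lower. Of 12 genes of postmitotic neurons, none was higher and 2 were lower, namely *Snap25* and *Gap43*, and the median log2 difference was -0.02. The *Snap25* call was lost without ND replicate 1, 3 or 4, and *Gap43* was called in only 1 of the 8 fits with a brain left out. *Tubb3*, the most abundant of the 12, was at 1882 ± 107 CPM in CDD and 1859 ± 25.0 CPM in ND brains (SD, n = 4 each). Oligodendrocyte precursors and astrocytes are glial products of radial glia. Of 5 oligodendrocyte precursor genes none was higher and 2 were lower, *Olig1* with a log2 fold change of -0.50 (adjusted p = 0.00287) and *Pdgfra* with -0.31 (adjusted p = 0.00690, both in edgeR's test). Their list had a summed level of 92.0 to 106 CPM in CDD and 114 to 132 CPM in ND brains, without overlap. Of 5 tested genes of astrocytes and ependymal cells, 0 were called in either direction, and *Gfap* and *S100b*, markers of mature astrocytes, were under 1.1 CPM in every brain.

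In the lists reported here for cells outside this lineage, some markers were called, beside 4.24% higher and 4.59% lower over all genes tested. *Pax6* is also made by granule cell precursors of the rhombic lip, of whose 6 genes none was called higher and *Barhl1* was lower. Of these 6 log2 fold changes 3 were above 0, and the part of these cells in the *Pax6* values was not tested. Of the erythroid genes 2 of 7 were higher, the embryonic globin genes *Hbb-y* and *Hba-x*. In the choroid plexus list *Otx2* was higher, among endothelial genes *Cldn5* was lower, among meningeal genes *Lum* was higher and *Col1a1* and *Col1a2* were lower, and 0 of 6 microglial genes were called. Among the called genes of these lists outside the lineage, *Cldn5* and *Hbb-y* were called in all 8 fits with a brain left out and the others in 1 to 6 of the 8. For every list described here as having 0 calls in a direction, DESeq2 and limma-voom also called 0 in that direction. At an unadjusted p-value under 0.05 these counts were 0 as well, except for 2 lower genes of astrocytes and ependymal cells and 3 lower microglial genes.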

How the data were processed

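Polyadenylated RNA of 8 whole E14.5 brains was sequenced in bulk, with samples grouped by maternal diet as their titles give it. The authors' deposited table gives each gene's unnormalized read count in every brain, together with a size-factor normalized signal and FPKM values, both made by the authors. The submitters' processing notes name HISAT2 2.0.5, featureCounts 1.5.0-p3 and DESeq2 1.20.0 and no genome build. Whether reads were counted by strand is not given in the sources used here. The deposited comparison of the diets (log2 fold changes and p-values), 3 shorter lists drawn from it and the normalized signal were not used.

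From the deposited counts, genes were filtered with filterByExpr, scaled by TMM and tested with the robust quasi-likelihood test of edgeR 4.0.16 on diet alone, over 19367 genes (threshold 0.05, Benjamini-Hochberg). The 5 ratios of gene pairs were compared by exact two-sided permutation over the 70 divisions of the 8 brains. The members and lists were chosen with earlier results of these data known, so no list was given a test. The text names all 10 members, the called genes of the radial glia and apical junction lists (at most 8 each by smallest p-value) and tested genes that overlap a member. For some marker lists only, it names up to 2 of the most abundant genes. Other genes, such as those named as called in a marker list or to complete a small count, and *Gfap* and *S100b*, were chosen after their values were seen. Alternatives were DESeq2 1.42.0, limma-voom (limma 3.58.1), RLE and upper-quartile scaling, no filter, at least 10 counts in every brain, a prior count of 0.5 (the main test used a smaller one), the replicate number as a block, each brain left out, *Xist* as a covariate, a threshold of 0.01, a change of at least 1.5-fold and FPKM ratios with a pseudocount of 1. Values on the log2 CPM scale used a prior count of 2. The test was tried before use on simulated data, in which genes drawn at random were changed. It called 16 of 50 genes with a log2 change of 0.25 in the true direction and 38 of 50 with 0.5. At 1 and 1.5 it called 39 and 49 of 50, and it called 13 of 18903 unchanged genes. A gene that was not called is therefore not shown to be unchanged. All pairs of brains differed beyond sampling noise (chi-square per degree of freedom 3.76 to 30.8). Other samples of the study were not analysed here. The result of 1 marker list is not reported here. Sequences came from GENCODE M21 and from RefSeq windows on GRCm38, and positions in the count table from its own unnamed build. Software was R 4.3.3 and Python 3.11.15 (SciPy 1.17.1, NumPy 2.4.6, pandas 2.3.3, matplotlib 3.10.9).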

Additional observations from a re-analysis of the deposited data

Results flagged for a closer look

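Of 60 sets of 4 brains examined (the 10 radial glia genes, the called genes of the 2 related lists and the 5 ratios, by diet), 5 held a brain far from the other 3, where chance gives about 1 in 20, or 3 of 60. None of these belonged to the 10 radial glia genes. In ND replicate 2, *Gli3* was at 64.7 CPM (6.02 on the log2 CPM scale) against 55.6 to 56.2 CPM in the other ND brains, and *Zfp36l1* was at 73.9 CPM (log2 6.21) against 65.5 to 66.0 CPM. In CDD replicate 2, *Tnc* was at 151 CPM (log2 7.23) against 131 to 133 CPM, and *Aldoc* was at 91.2 CPM (log2 6.51) against 78.3 to 79.9 CPM. *Tnc* was also at 188 CPM (log2 7.55) in ND replicate 3, against 172 to 174 CPM in the other ND brains.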

How the results depend on the processing

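The count of 5 higher and 0 lower radial glia genes was the same under DESeq2, limma-voom, RLE or upper-quartile scaling, no filter, a minimum of 10 counts, a prior count of 0.5 and *Xist* as a covariate. With each brain left out it ranged from 4 to 5 higher and 0 lower, *Vim* being the gene lost without ND replicate 1, 3 or 4, and the median log2 fold change ranged from 0.14 to 0.19. At an adjusted p-value under 0.01 it was 4, again without *Vim*, and 0 of the 10 genes had a change of at least 1.5-fold. Of the other radial glia genes, 3 were higher and 1 lower at 0.01, and 0 and 0 at 1.5-fold. With a brain left out, 3 to 12 were higher and 1 to 3 lower, namely 5 higher without ND replicate 1, 3 without ND replicate 3 and 4 without ND replicate 4, where all genes called fell from 1710 to 688, 471 and 615. The lower genes numbered 1 without ND replicate 1, 3 or 4 or CDD replicate 1, and 3 without CDD replicate 2. The log2 fold change of *Slc1a3*, never called, was -0.0021 with *Xist* as a covariate and -0.0445 without CDD replicate 2, with a range of -0.0445 to 0.0687 when each brain was left out. The cause of these shifts was not tested. No ratio moved by more than its spread.

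Same-numbered brains correlated at 0.105, -0.133, 0.117 and 0.232 in their deviations from the group means, and brains of different number at -0.250 to 0.214. Replicates 1, 3 and 4 of each diet correlated best with the same number in the other diet, and replicate 2 did not. These values do not settle whether the replicate numbers pair the brains. With the number as a block, 1812 genes were called, and of the radial glia genes 5 were higher and 0 lower, of the other list 9 and 3. The *Sox3*/*Sox2* ratio had an adjusted exact p of 0.3125 under the block.

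Depth limited *Hopx* most, at 100 to 156 reads per brain, and with 4 brains per diet the narrowest 95% interval, that of *Sox2*, ran from 0.0047 to 0.18. Reads shared with *Sox1ot* and *Sox2ot* could not be separated here.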
